A study of Mus musculus with 14 samples.

Results

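The 33 genes described here are markers of mouse astrocytes, 18 of the resting or homeostatic state and 15 of the reactive state, chosen by gene name and measured among 23337 genes by RNA sequencing of 2 brain regions. All 33 names were found in the count tables. The libraries came from Thap1 conditional knockout (cKO) mice and from wildtype (WT) littermates, all C57Bl/6 mice aged 6 months. Striatum gave 3 cKO and 3 WT libraries, and cerebellum gave 4 cKO and 4 WT libraries. Thap1 encodes a zinc finger transcription factor in which mutations cause an inherited dystonia, and both regions belong to motor circuits. The sources used here do not give the Cre driver, the cells in which it acts or the deleted part of the gene. Nor do they say that each library came from a different animal, so the spread behind each p-value may be partly technical. Each group held libraries of both sexes, by the counts given below, so the libraries of a group did not all come from the same animal.

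Astrocytes take up glutamate through Slc1a3 and Slc1a2, turn it into glutamine with glutamine synthetase, move water and ions through channels such as Aqp4, and are joined to each other by connexin gap junctions. After injury, inflammation or loss of myelin they can become reactive, a state marked by more of the filament protein GFAP and, in some settings, by complement, acute-phase and stress proteins. In the cerebellum the Bergmann glia, astrocytes that wrap the Purkinje cell dendrites, make up a large part of the population. In bulk tissue, fewer cells of a type and less RNA per cell cannot be told apart.

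Levels are CPM, a gene's counts relative to the TMM-scaled total of its library, scaled apart for each tissue unless stated, and every fold change is cKO over WT on the log2 scale. A gene was called when edgeR's quasi-likelihood test gave a Benjamini-Hochberg adjusted p under 0.05 over all genes tested. Library totals ran from 12659013 to 14258141 counts in cKO striatum, 12595941 to 13499875 in WT striatum, 19860775 to 28099205 in cKO cerebellum and 19458954 to 24331760 in WT cerebellum. Thap1 itself ranged from 3.77 to 7.65 CPM in cKO striatum, against 13.2 to 15.3 CPM in WT striatum, and from 6.84 to 7.79 CPM in cKO cerebellum, against 8.15 to 10.5 CPM in WT cerebellum, so no cKO library reached a WT library of its tissue. The region markers were those of the labelled tissues, with the granule cell gene Gabra6 and the Purkinje cell gene Pcp2 at 0 counts in all striatal libraries. One library stood apart from the rest. In striatal WT replicate 1, log2 CPM increased by 0.22 per doubling of transcript length, where the slopes of the other striatal libraries lay between −0.06 and −0.03, and this library also had the lowest levels of the short transcripts Apoe, Mt1 and Mt2. By Xist and Y-linked counts, each striatal group held libraries of 1 male and 2 females, with WT replicate 1 the male one, and each cerebellar group held 2 of each sex.

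In the cerebellum, 5 of the 33 genes rose and 3 fell in cKO mice. The reactive genes Gfap, C4b and Cp rose, as did the homeostatic genes Aqp4 and Gja1. The homeostatic genes S100b, Slc1a3 and Acsbg1 fell. The called share was 24.2% of the members, against 7.59% of all 14775 genes tested in the cerebellum, with 2.63% of all genes higher and 4.96% lower. Of the 18 homeostatic genes 2 rose and 3 fell, and their median log2 fold change was −0.06. Of the 15 reactive genes 3 rose and 0 fell, and their median was 0.29, beside 0.0044 over all genes. Irrespective of calling, 15 of the 33 had a fold change above 0, beside 51.6% of all genes, and 15 had an unadjusted p under 0.05, beside 22.5%. Without overlap between the groups, 6 members were higher in cKO and 3 lower, where 6.38% of all genes were higher and 7.96% lower in that way.

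Gfap, which encodes the intermediate filament of the astrocyte cytoskeleton (chr11:102887336-102900912, minus strand, GRCm38), had 327, 302, 363 and 345 CPM in cKO cerebella, against 182, 206, 196 and 177 CPM in WT cerebella. The lowest cKO library lay far above the highest WT library. Gfap rose to 176% of its WT mean, a log2 fold change of 0.81 with a standard error (SE) of 0.06 (edgeR adjusted p = 1.6e-05). C4b, complement component 4 (chr17:34728380-34743882, minus strand), had 24.3, 24.1, 20.6 and 25.6 CPM in cKO cerebella, against 15.4, 19.6, 16.3 and 17.4 CPM in WT cerebella. The groups came close between cKO replicate 3 and WT replicate 2 but did not overlap. C4b rose to 138% of WT, a log2 fold change of 0.46 (SE 0.08, edgeR adjusted p = 0.00226). C4b shares 34.6% of its 50-base windows with its near-identical neighbour C4a, so some reads of the pair may not be told apart. How such reads were counted is not given in the sources used here. C4a itself was counted at 0.594 CPM in cKO and 0.723 CPM in WT cerebella, far below C4b, and was not called.

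Cp encodes ceruloplasmin, a copper-carrying ferroxidase that astrocytes hold at their surface (chr3:19957054-20009145, plus strand). It had 46.7, 38.8, 36.8 and 35.2 CPM in cKO cerebella, against 31.2, 33.4, 30.9 and 27.4 CPM in WT cerebella, with no overlap. Cp rose to 128% of WT, a log2 fold change of 0.36 (SE 0.09, edgeR adjusted p = 0.0337). This call was lost when WT replicate 1, 3 or 4 or cKO replicate 2 was left out (adjusted p = 0.0672 to 0.0897). Ceruloplasmin is also made by the choroid plexus, whose 12 markers summed to 1283 to 5647 CPM in cKO and 244.8 to 3692 CPM in WT cerebella, with none of the 12 called. The library with the highest choroid plexus sum, cKO replicate 1, also had the highest Cp level. Elsewhere, WT replicates 3 and 4 held choroid plexus sums of 244.8 and 3692 CPM with Cp at 30.9 and 27.4 CPM, and cKO replicates 2 and 3 held sums of 1283 and 5154 CPM with Cp at 38.8 and 36.8 CPM. The part of choroid plexus in the result was not tested.

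**Figure D1:**
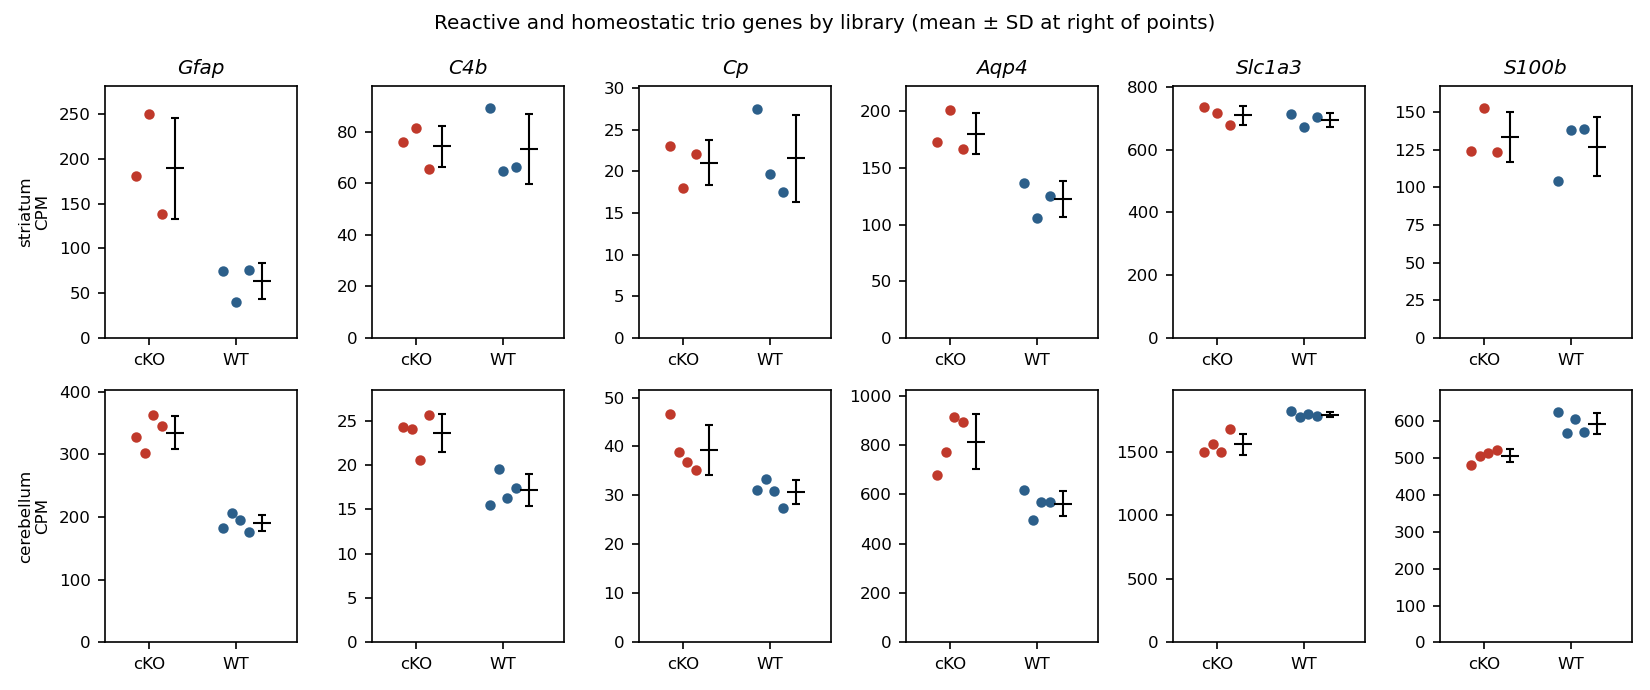
Levels of 3 reactive genes (Gfap, C4b, Cp) and 3 homeostatic genes (Aqp4, Slc1a3, S100b) in CPM, in striatum (upper row) and cerebellum (lower row), 1 point per library with the mean ± SD beside the points and each vertical axis starting at 0. In the cerebellum the cKO and WT points of all 6 genes are separate, while in the striatum they are separate for Gfap and Aqp4.

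The other reactive genes were not called in the cerebellum. S1pr3, a receptor for sphingosine-1-phosphate, ranged from 4.27 to 5.40 CPM in cKO and from 3.14 to 4.05 CPM in WT cerebella, without overlap (log2 fold change 0.30, SE 0.13, edgeR adjusted p = 0.17). Cd44, the hyaluronan receptor, had a log2 fold change of 0.26 (SE 0.10, edgeR adjusted p = 0.161), and the protease inhibitor Serpina3n had 0.29 (SE 0.15, edgeR adjusted p = 0.26). The metalloproteinase inhibitor Timp1 stood at 0.71 (SE 0.30, edgeR adjusted p = 0.175), from 16 to 25 counts per cKO library and 7 to 18 per WT library. The iron-carrier-binding protein Lcn2 ran from 0.162 to 4.47 CPM in cKO and from 0.136 to 2.67 CPM in WT cerebella, and in both genotypes the 2 male libraries held the higher values. Also not called were vimentin (Vim), the filament partner of GFAP, the oncostatin M receptor Osmr and the heat shock proteins Hspb1 and Cryab. Nor were the metalloreductase Steap4 and the metallothioneins Mt1 and Mt2. Log2 fold changes of these genes lay between −0.14 and 0.35. Hspb1 shares 50.1% of its 50-base windows with other genes, mostly the pseudogene Hsp25-ps1. Mt2 shares 45.8% of its windows with Gm45774, on the opposite strand. Counts of Hspb1 and Mt2 could be affected. The 15 reactive genes summed to 873.7 to 941.6 CPM in cKO and 733.4 to 824.8 CPM in WT cerebella, without overlap, and Gfap carried this. The mean sums were 907 CPM in cKO and 774.7 CPM in WT, which lie closer together than the means of Gfap alone, 334 and 190.3 CPM.

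Among the homeostatic genes for channels and junctions, Aqp4 and Gja1 rose, while the second connexin gene, Gjb6, was not called (log2 fold change −0.04). Aqp4, the water channel of the astrocyte endfeet, had 679, 770.3, 915 and 894 CPM in cKO cerebella, against 618, 497, 571 and 568 CPM in WT cerebella. Every cKO library exceeded every WT library, and cKO replicates 1 and 2 lay nearest to the WT group. Aqp4 rose to 145% of WT (log2 fold change 0.53, SE 0.11, edgeR adjusted p = 0.0201), a call that was lost without WT replicate 3 or 4 or cKO replicate 4 (adjusted p = 0.0523 to 0.0684). Gja1, connexin 43 (chr10:56377330-56402513, plus strand), had 309, 341, 355 and 337 CPM in cKO cerebella, against 305, 275, 283 and 262 CPM in WT cerebella. The groups nearly touched between the first replicates of each genotype and did not overlap. Gja1 rose to 119% of WT (log2 fold change 0.25, SE 0.05, edgeR adjusted p = 0.00567). Mlc1, a membrane protein of the same endfeet, and Aldh1l1, a folate enzyme used as a general astrocyte marker, had log2 fold changes of 0.11 and 0.15 and edgeR adjusted p of 0.11 and 0.0885.

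Among the homeostatic genes for transport, metabolism and calcium binding, 3 fell. S100b, a calcium-binding protein (chr10:76253853-76261159, plus strand), had 481, 505, 513 and 522 CPM in cKO cerebella, against 625, 568, 606 and 569.6 CPM in WT cerebella. Slc1a3, the glutamate transporter GLAST (chr15:8634124-8710764, minus strand), had 1498, 1561, 1501 and 1679 CPM in cKO cerebella, against 1820.4, 1772, 1798 and 1781 CPM in WT cerebella. Acsbg1, a fatty acyl-CoA synthetase (chr9:54604877-54661870, minus strand), had 294, 313, 303 and 315 CPM in cKO cerebella, against 335, 353, 348 and 335 CPM in WT cerebella. For each of the 3 genes all cKO libraries lay below all WT libraries, and the WT values of Slc1a3 were tightly grouped. S100b fell to 85.3% of WT (log2 fold change −0.23, SE 0.04, edgeR adjusted p = 0.00381). Slc1a3 fell to 87.0% (−0.20, SE 0.04, edgeR adjusted p = 0.00625) and Acsbg1 to 89.3% (−0.16, SE 0.03, edgeR adjusted p = 0.00834). Each of these changes was smaller than those of Gfap, C4b and Cp on the log2 scale.

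The remaining 13 homeostatic genes were not called in the cerebellum, and their log2 fold changes lay between −0.17 and 0.15. Glutamine synthetase (Glul) had −0.17 (edgeR adjusted p = 0.0857) and the second glutamate transporter, Slc1a2, had −0.06 (edgeR adjusted p = 0.446). The lipid carrier Apoe had −0.10, the secreted chaperone Clu −0.06, the glycolytic enzyme Aldoc −0.05, the bicarbonate transporter Slc4a4 −0.04 and the transcription factor Sox9 0.09. The 18 homeostatic genes summed to 10940 to 11470 CPM in cKO and 11070 to 11990 CPM in WT cerebella, and these ranges overlapped.

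Within each sex the 8 called genes kept their direction. The log2 ratio of group means in the 2 males and 2 females per genotype was 0.70 in males and 0.93 in females for Gfap, 0.38 and 0.67 for Aqp4, 0.47 and 0.46 for C4b, and −0.28 and −0.18 for S100b. When all 14 libraries shared 1 model, and with it 1 estimate of the spread per gene over both tissues, Aqp4 alone of the 8 passed in the cerebellum (adjusted p = 0.0144), while Gfap, C4b, Slc1a3, Gja1, Acsbg1, S100b and Cp had adjusted p of 0.0585 to 0.237 at nearly the same fold changes.

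Promoter sequence is shown for those of the 5 risen genes that had an entry in the RefSeq promoter table, so that the positions of short motifs can be seen: 250 bases upstream of the annotated start on GRCm38.p6, written 5′ to 3′ on the gene's strand. Capitals mark letters matching the THAP1 half-site TNNNNGGCA or the AP-1 site TGANTCA, searched on both strands. The Gfap window is chr11:102897201-102897450 on the minus strand. The Gja1 window is chr10:56377050-56377299 and the Cp window chr3:19956804-19957053, both on the plus strand. The starts are those of RefSeq and can differ from the GENCODE spans given above. The Gfap window lies within the GENCODE span of Gfap. The Gja1 window ends before the GENCODE start of Gja1 without reaching it, while the Cp window adjoins that of Cp.
Gfap: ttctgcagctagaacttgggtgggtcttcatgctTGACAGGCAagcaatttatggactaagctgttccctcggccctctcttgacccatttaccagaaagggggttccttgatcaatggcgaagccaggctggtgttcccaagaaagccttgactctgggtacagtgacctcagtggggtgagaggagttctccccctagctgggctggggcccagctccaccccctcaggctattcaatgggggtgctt
Gja1: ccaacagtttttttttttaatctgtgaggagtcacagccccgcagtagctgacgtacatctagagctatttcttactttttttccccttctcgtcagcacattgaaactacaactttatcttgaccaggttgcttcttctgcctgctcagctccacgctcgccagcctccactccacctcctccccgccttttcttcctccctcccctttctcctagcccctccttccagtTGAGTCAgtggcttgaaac
Cp: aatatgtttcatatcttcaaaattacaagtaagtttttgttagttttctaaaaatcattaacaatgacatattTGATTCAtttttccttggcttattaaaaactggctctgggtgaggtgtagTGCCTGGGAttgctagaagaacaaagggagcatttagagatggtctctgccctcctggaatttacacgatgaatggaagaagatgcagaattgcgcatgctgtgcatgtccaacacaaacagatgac

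The Gfap window held the THAP1 letters at −216 to −208 from the RefSeq start. The Gja1 window held the AP-1 letters at −19 to −13, and the Cp window held AP-1 letters at −177 to −171 and THAP1 letters, on the opposite strand, at −127 to −119. Such letters are common. TNNNNGGCA was found in 38.1% of 32851 promoter windows of this length and in 33.3% of the 36 windows of the 28 members that matched the table. TGANTCA was found in 6.75% of all windows and in 3 of the 36. The STAT site TTCNNNGAA was found in 7.02% of all windows and in those of Acsbg1, Aldoc, Slc1a3 and Steap4, and not in the 3 windows shown. These are matches of letters only.

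In the striatum, 1 of the 33 genes was called. The small heat shock protein gene Cryab fell in cKO mice, and none rose at the threshold. Gfap and Serpina3n had the highest fold changes of the members, with all cKO libraries above all WT libraries and neither called. Lcn2, Timp1 and Steap4 were too low to test, with 0 to 11 counts per library. The called share was 3.33% of the 30 members tested, against 0.384% of all 14080 genes tested in the striatum, of which 0.0639% were higher and 0.32% lower. The 18 homeostatic genes had a median log2 fold change of 0.10 and the 12 reactive genes tested a median of 0.01, beside 0.0024 over all genes. At an unadjusted p under 0.05 there were 5 members, beside 7.24% of all genes, and 21 of the 30 had a fold change above 0, beside 50.6% of all genes. The reactive genes summed to 614.8 to 749.7 CPM in cKO and 434 to 599.9 CPM in WT striata, without overlap. Gfap made up most of the difference, with means of 189 CPM in cKO and 63.6 CPM in WT beside mean sums of 677 and 519.3 CPM.

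Cryab, a chaperone of astrocytes and also of oligodendrocytes (chr9:50751325-50756636, plus strand), had 60.6, 57.8 and 49.6 CPM in cKO striata, against 87.6, 86.4 and 99.8 CPM in WT striata. The groups were well apart. Cryab fell to 61.3% of WT (log2 fold change −0.70, SE 0.11, edgeR adjusted p = 0.0417). Left out in turn, every striatal library except WT replicate 1 took the adjusted p above 0.05 (0.0591 to 0.282), while without WT replicate 1 it was 0.00672. The gene overlaps Hspb2, which lies on the opposite strand, over 17.04% of its exon bases, and the sources used here do not say whether counting used the strand. Myelin genes moved in the same direction in these libraries. The 14 myelin markers summed to 4852 to 6032 CPM in cKO and 7644 to 9375 CPM in WT striata. None of the 14 was at 0 in all libraries. Of the 14, 6 fell, where 0.32% of all genes tested fell. Mal and Cldn11 were among them, with log2 fold changes of −1.08 and −0.90. The part of these cells in the Cryab result was not tested.

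Gfap had 181, 249.7 and 138 CPM in cKO striata, against 75.2, 40.0 and 75.7 CPM in WT striata. The lowest cKO value was well above the highest WT value, but the cKO libraries spread widely. The mean stood at 298% of WT, with a log2 fold change of 1.58 (SE 0.27) and an edgeR adjusted p of 0.0593. It passed with DESeq2 (adjusted p = 3.96e-07) and in the model of all 14 libraries (0.00231), and over all settings the adjusted p reached 0.42. Serpina3n, a protease inhibitor of reactive astrocytes, had 12.1, 12.4 and 8.47 CPM in cKO striata, against 4.81, 4.74 and 6.31 CPM in WT striata, again without overlap (log2 fold change 1.06, SE 0.20, edgeR adjusted p = 0.0962). It passed with DESeq2 (0.003), in the model of all 14 libraries (0.00554) and without the low-count filter (0.0488). Aqp4 had 173, 201 and 167 CPM in cKO striata, against 136, 106 and 126 CPM in WT striata, without overlap (log2 fold change 0.56, SE 0.12, edgeR adjusted p = 0.136). Without WT replicate 1 its fold change was 0.65 and its adjusted p 0.0165, and over all settings the adjusted p of Aqp4 ran from 0.00802 to 0.538. Within the male pair, which holds WT replicate 1, and within the 2 females per genotype, the log2 ratios were 1.26 and 1.75 for Gfap, 0.34 and 0.67 for Aqp4, 1.33 and 0.92 for Serpina3n, and −0.53 and −0.79 for Cryab.

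The other genes of the contrast were not called in the striatum, where small changes could be missed. C4b had 76.0, 81.2 and 65.5 CPM in cKO striata, against 88.9, 64.7 and 66.3 CPM in WT striata (log2 fold change 0.02, SE 0.14). Cp had 23.03, 18.03 and 22.1 CPM in cKO striata, against 27.45, 19.6 and 17.6 CPM in WT striata (−0.03, SE 0.18). In both genes the highest value belonged to WT replicate 1, and without that library the fold changes were 0.19 for C4b and 0.18 for Cp. Slc1a3 had 736, 717 and 677 CPM in cKO striata, against 714, 671 and 703 CPM in WT striata (0.03, SE 0.08). S100b had 124, 152 and 123 CPM in cKO striata, against 104, 138 and 139 CPM in WT striata (0.07, SE 0.13). The groups of all 4 genes overlapped, and their edgeR adjusted p lay at 0.89 or above.

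Of the remaining striatal members, Clu lay higher in all cKO libraries (828 to 850.3 CPM, against 614 to 794 CPM in WT) and Glul lower in all cKO libraries (1353 to 1407 CPM, against 1462 to 1620.3 CPM in WT), and neither was called (edgeR adjusted p = 0.722 and 0.74). With Gfap, Aqp4 and Serpina3n there were thus 4 members higher and, with Cryab, 2 lower without overlap between the groups, where 6.85% of all genes were higher and 8.2% lower in that way. Mt1, Mt2 and Apoe had log2 fold changes of 0.44, 0.40 and 0.30, with edgeR adjusted p of 0.78 or above. Their WT means included the low values of WT replicate 1, which were 55.6 CPM for Mt1, 33.8 CPM for Mt2 and 702 CPM for Apoe, where the other WT libraries had 149 and 151, 89.4 and 102, and 1192 and 1375 CPM.

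**Figure D2:**
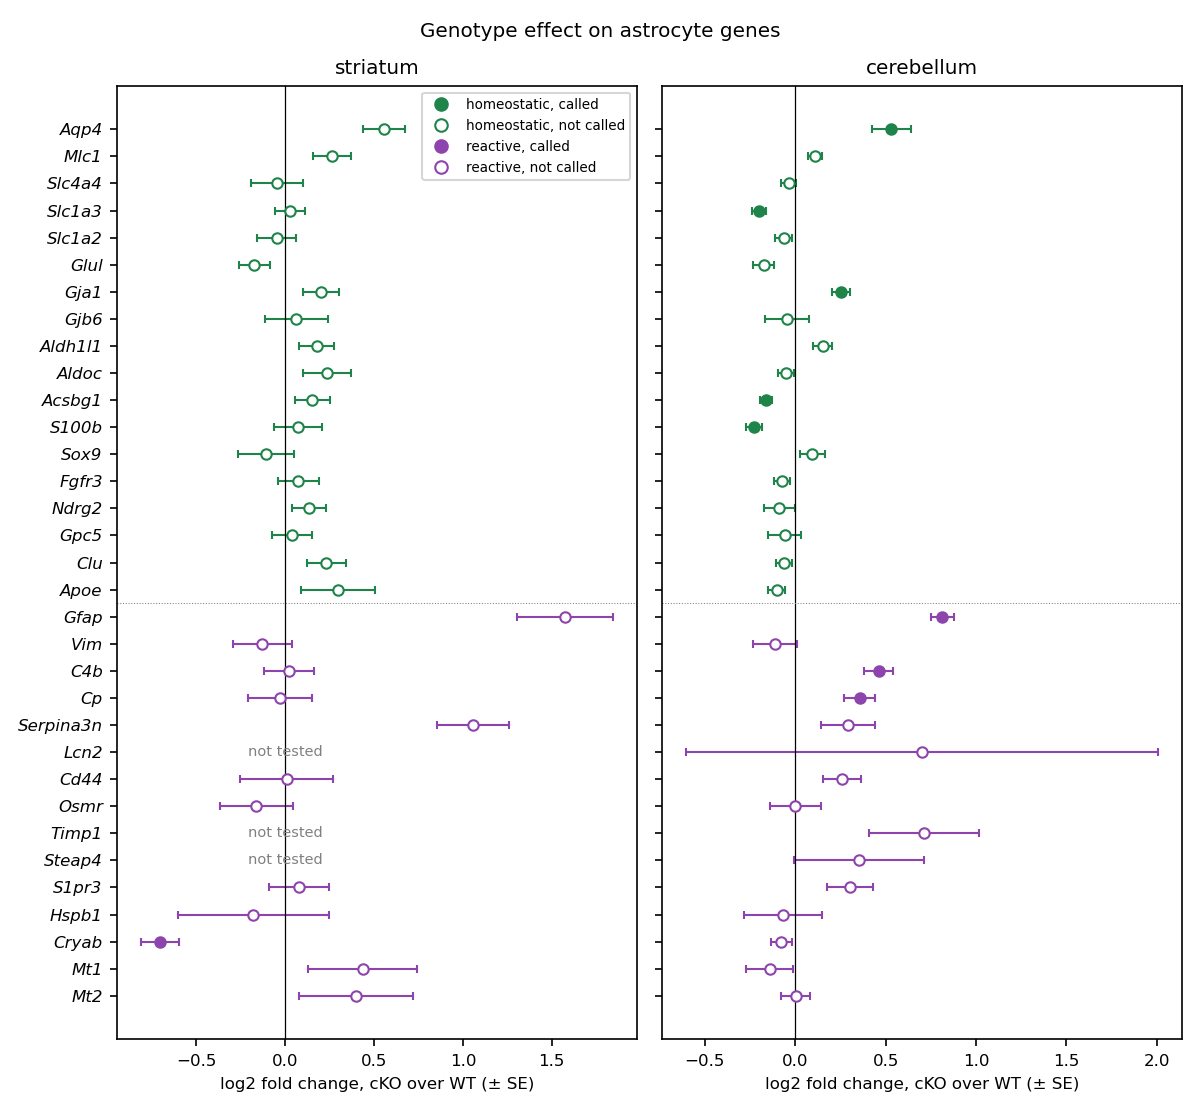
Log2 fold change, cKO over WT, with its standard error for each of the 33 genes in striatum (left) and cerebellum (right), homeostatic genes in green above the dotted line and reactive genes in purple below it. Filled points passed an adjusted p of 0.05, which 1 gene did in striatum and 8 did in cerebellum.

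The genotype effect differed between the tissues for 1 member. The interaction, which subtracts the log2 fold change in striatum from that in cerebellum in a model of all 14 libraries, was 0.61 for Cryab (SE 0.12, edgeR adjusted p = 0.0376), 1 of 33 members, where 0.39% of all 15401 genes were called, 0.24% higher and 0.149% lower. At an unadjusted p under 0.05 there were 10 members, beside 11.6% of all genes, and 12 members had an interaction above 0, beside 46.8%. In the cerebellum Cryab had 77.6, 67.7, 71.0 and 61.4 CPM in cKO mice, against 74.3, 74.2, 74.2 and 70.1 CPM in WT mice, and these groups overlapped (log2 fold change −0.08, SE 0.06). The interaction call was lost without striatal WT or cKO replicate 3, and without any single cerebellar library other than cKO replicate 4 (adjusted p = 0.0647 to 0.108). For genes called in the cerebellum but not in the striatum, a difference between tissues was not shown by edgeR, and DESeq2 called that of Acsbg1 (−0.32, adjusted p = 0.0269). In edgeR the interaction was 0.43 for C4b (SE 0.16, edgeR adjusted p = 0.331), 0.37 for Cp (SE 0.20, 0.483), −0.31 for S100b (SE 0.13, 0.385), −0.25 for Slc1a3 (SE 0.08, 0.252) and −0.33 for Acsbg1 (SE 0.09, 0.136). For Gfap and Serpina3n it was −0.78 for each, with edgeR adjusted p of 0.337 and 0.23, and for Aqp4, with similar fold changes in both tissues, it was −0.04 (SE 0.16, 0.945).

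Set against each other, the reactive trio of Gfap, C4b and Cp stood higher in cKO cerebella relative to the homeostatic trio of Aqp4, Slc1a3 and S100b. The mean log2 CPM of the reactive trio minus that of the homeostatic trio was −3.45, −3.69, −3.77 and −3.76 in cKO cerebella, against −4.32, −3.95, −4.20 and −4.24 in WT cerebella. The groups did not overlap, and the cKO mean was higher by 0.51, from −3.67 ± 0.149 in cKO and −4.18 ± 0.161 in WT (SD, n = 4 each). With the median of the 3 genes in place of their mean, the difference between cKO and WT turned to −0.10. That median compares different genes, since the middle homeostatic gene was S100b in all WT and Aqp4 in all cKO cerebella. The mean of the reactive trio was higher by 0.54 in cKO. That of the homeostatic trio was higher by 0.03, with the rise of Aqp4 set against the falls of S100b and Slc1a3.

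In the striatum the same difference was −1.88, −1.97 and −2.04 in cKO mice, against −1.93, −2.52 and −2.37 in WT mice. WT replicate 1 lay among the cKO values, so the groups overlapped. The cKO mean was higher by 0.31, with −1.96 ± 0.0791 in cKO and −2.27 ± 0.31 in WT (SD, n = 3 each), and by 0.49 without WT replicate 1. With medians it turned to −0.044, and here too the middle gene of each trio was not the same in all libraries. The reactive trio was higher by 0.53, which came from Gfap, and the homeostatic trio by 0.22, which came mostly from Aqp4. The trios were chosen with earlier results known, so these differences are descriptions with no test, and only the differences between genotypes are read, since transcript length sets the level of each gene.

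**Figure D3:**
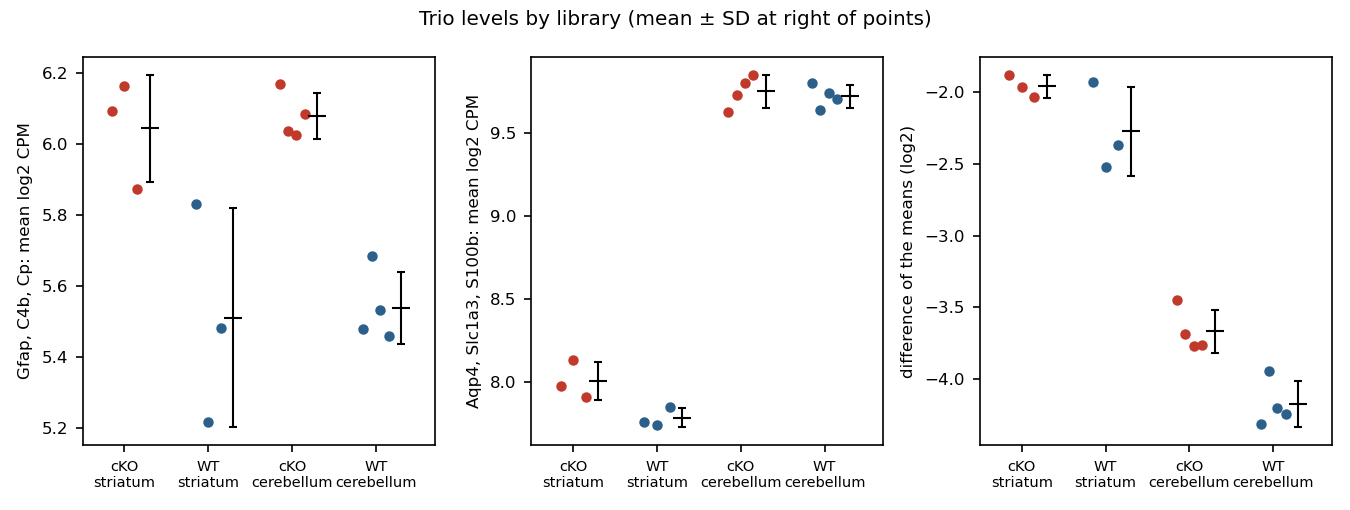
Mean log2 CPM of the reactive trio (left), of the homeostatic trio (middle) and their difference (right) for each library, with the mean ± SD beside the points; vertical axes do not start at 0. The difference separates cKO from WT cerebella, with means of −3.67 and −4.18, while in the striatum WT replicate 1, at −1.93, lies among the cKO libraries.

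Further genes of the same biology were read from lists that go beyond the 33. Among 29 other astrocyte genes tested, 2 rose and 6 fell in the cerebellum, where 2.63% of all genes rose and 4.96% fell. None was called in the striatum, where 0.384% of all genes were called. The potassium channel Kcnj10, which works beside Aqp4 in the endfeet, rose with a log2 fold change of 0.25 (SE 0.04, edgeR adjusted p = 0.000589), and the zinc transporter Slc39a12 with 0.26 (SE 0.04, edgeR adjusted p = 0.000602). Dio2, the deiodinase with which astrocytes activate thyroid hormone, averaged 31.6 ± 3.37 CPM in cKO and 51.8 ± 3.75 CPM in WT cerebella (SD, n = 4 each) and fell by 0.71 on the log2 scale (SE 0.07, edgeR adjusted p = 4.25e-05). The transcription factor Nfia, the glutamate receptor subunit Grin2c, the receptor Gpr37l1 and the potassium channel Kcnj16 fell by smaller amounts, with log2 fold changes between −0.28 and −0.15. Grin2c is also a gene of granule neurons.

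Of the other genes commonly raised in reactive astrocytes of any kind, 1 of 10 tested in the cerebellum was called, a share near the 7.59% of all genes called there. It was the secreted phosphoprotein Spp1, which rose (log2 fold change 0.43, SE 0.09, edgeR adjusted p = 0.0129). Of genes reported in astrocytes after ischaemia, 2 of 9 rose, the calcium-binding protein S100a10 (0.45, SE 0.07, edgeR adjusted p = 0.000727) and the surface protein Cd109 (0.66, SE 0.18, edgeR adjusted p = 0.0292). Which cells of the bulk tissue gave the rises of Spp1, S100a10 and Cd109 was not tested. Of 12 genes reported after inflammatory stimulation, none was called in either tissue. Of 17 complement genes other than C4b that were tested in the cerebellum, none was called, and the C1q genes C1qa, C1qb and C1qc had log2 fold changes of 0.18, 0.22 and 0.13.

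In the pathway by which cytokines of the IL-6 family act through STAT3, a regulator of Gfap, 1 of 12 genes rose and 2 fell in the cerebellum. Over all genes tested there, 2.63% rose and 4.96% fell. The shared receptor subunit Il6st rose (log2 fold change 0.13, SE 0.04, edgeR adjusted p = 0.0288). The ciliary neurotrophic factor receptor Cntfr fell (−0.32, SE 0.04, edgeR adjusted p = 0.000145), as did the kinase Tyk2 (−0.24, SE 0.06, edgeR adjusted p = 0.0256). Stat3 itself had 0.01 and its feedback inhibitor Socs3 −0.16, neither called. None of these lists held a called gene in the striatum.

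Markers of other cell types were read beside these results. In the cerebellum, where 7.59% of all genes were called, 1 of 11 Bergmann glia genes tested rose, a share near that background. It was the growth factor gene Gdf10 (log2 fold change 0.26, SE 0.04, edgeR adjusted p = 0.000969), and the list summed to 3024 to 3350 CPM in cKO and 3255 to 3346 CPM in WT cerebella. Of 15 microglial genes 1 rose, Fcrls, with sums of 252.1 to 274 CPM in cKO and 234.7 to 258.1 CPM in WT. Meningeal genes were higher without overlap. Their sum was 1392 to 1740 CPM in cKO and 869.2 to 1239 CPM in WT cerebella, none of the 12 was at 0 in all libraries, and 4 of the 12 rose, Aebp1, Col1a2, Bmp6 and Igf2. Cells of the meninges also use the connexin Gja1, and their part in the results was not tested. Myelin genes were lower without overlap, with sums of 4656 to 5228 CPM in cKO and 5336 to 5872 CPM in WT cerebella, and 9 of 14 fell. S100b is also made by oligodendrocytes, whose part in its fall was not tested. In the striatum, beside the lower myelin sums, the 9 markers of oligodendrocyte precursors summed to 378.8 to 403.5 CPM in cKO and 416.2 to 515.4 CPM in WT, and the 9 general neuron markers to 5545 to 5814 CPM in cKO and 5082 to 5441 CPM in WT. Neither pair of ranges overlapped, and none of these 18 genes was called. Choroid plexus sums were 265.2 to 472.8 CPM in cKO and 302.5 to 418.7 CPM in WT striata. Ependymal sums were 76.53 to 94.5 CPM in cKO and 37.79 to 85.72 CPM in WT striata. Both pairs of ranges overlapped and no tested gene was called, with median log2 fold changes of 0.80 and 0.41. The choroid plexus gene Ttr averaged 94.8 CPM in cKO and 9.01 CPM in WT striata (edgeR adjusted p = 0.557). The part of these cell types in the striatal values of Gfap, Aqp4 and Cryab was not tested.

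**Figure D4:**
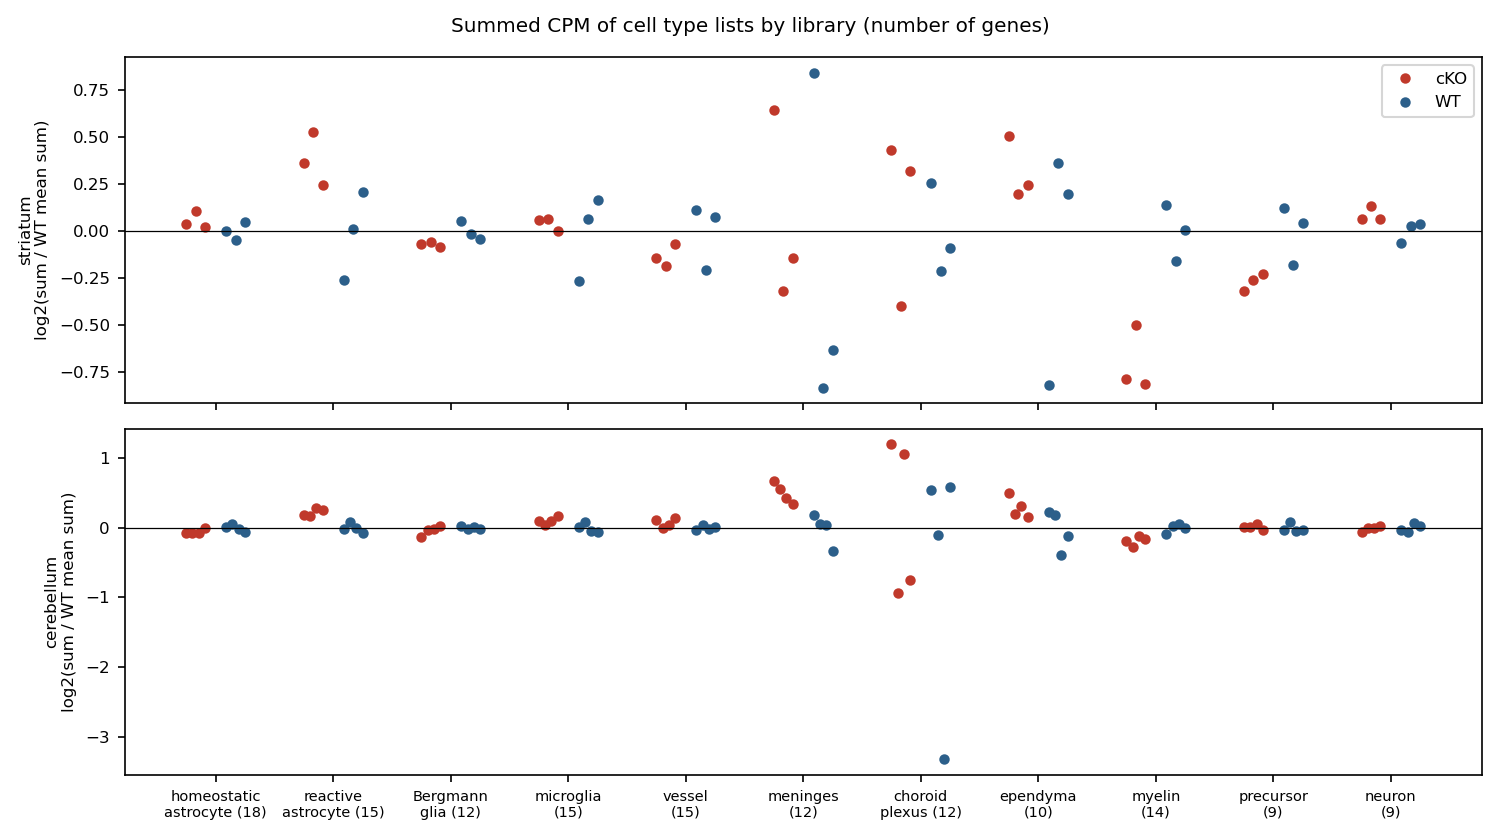
Summed CPM of marker lists in each library as a log2 ratio to the WT mean sum of the same tissue, with the number of genes in parentheses, cKO points in red left of WT points in blue. In both tissues the myelin sums of cKO libraries lie below those of WT libraries and the reactive astrocyte sums above them, and in the cerebellum the meningeal sums lie above and 1 WT library has a choroid plexus sum of 244.8 CPM.

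The same genes differed widely between the regions in WT mice, from the WT libraries used above, here scaled over both tissues. Of 31 members tested, 14 were higher and 10 lower in WT cerebellum than in WT striatum by edgeR at an adjusted p of 0.05, in a comparison where 64.2% of all 15031 genes were called, 32.7% higher and 31.5% lower. At an unadjusted p under 0.05 there were 26 members, beside 67.3% of all genes, and 19 had a fold change above 0, beside 51.8%. Without overlap between the regions, 13 members were higher and 10 lower, where 34.1% of all genes were higher and 31.5% lower. Of the 18 homeostatic genes 11 were higher and 5 lower, and of the 13 reactive genes tested 3 were higher and 5 lower.

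S100b averaged 561 ± 26.9 CPM in WT cerebellum (n = 4) and 134 ± 19.7 CPM in WT striatum (SD, n = 3), a log2 fold change of 2.07 (SE 0.11, edgeR adjusted p = 1.37e-07). Aqp4 averaged 533 ± 47.5 CPM in WT cerebellum and 129 ± 17.3 CPM in WT striatum (2.04, SE 0.11), and Gfap 180.1 ± 12.5 and 67.2 ± 21.8 CPM (1.42, SE 0.20). Slc1a3, Aldoc, Vim and Cd44 were also higher in the cerebellum, with log2 fold changes of 1.21, 1.40, 1.74 and 1.75. The opposite order held for Slc1a2, the glutamate transporter GLT-1, at 1173 ± 80.5 CPM in WT cerebellum and 4189.9 ± 576 CPM in WT striatum (−1.84, SE 0.10). It also held for C4b, at 16.3 ± 1.69 CPM in WT cerebellum and 77.4 ± 15.1 CPM in WT striatum (−2.25, SE 0.13), for the heparan sulphate proteoglycan gene Gpc5 (−2.15, SE 0.08) and for Glul (−0.87, SE 0.09). The 2 glutamate transporters thus had opposite orders in the 2 regions, as did the reactive genes Gfap and C4b.

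Divided by exon length, with CPM here scaled over all 14 libraries together, the member levels in WT libraries spanned several orders of magnitude. In CPM per kilobase, WT cerebellum was led by Aldoc at 597, Apoe at 448 and S100b at 382, with Osmr at 0.33 and Steap4 at 0.226 the lowest. WT striatum was led by Apoe at 543, Glul at 501 and Slc1a2 at 321 CPM per kilobase, with Steap4 at 0.168 and Lcn2 at 0.0827 the lowest. Apoe and Glul did not differ beyond their spread in WT striatum, where Apoe had an SD of 174. Gfap stood at 47.9 ± 14.2 CPM per kilobase in cKO striatum, rank 13 of the 33, and at 16.1 ± 5.16 in WT striatum, rank 19 (SD, n = 3 each). It stood at 75.2 ± 5.95 CPM per kilobase in cKO cerebellum, rank 14, and at 43.2 ± 3.08 in WT cerebellum, rank 16 (SD, n = 4 each). C4b and Cp, the other reactive genes of the contrast, were low in per-length level in WT cerebellum, at 2.89 and 3.08 CPM per kilobase.

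**Figure D5:**
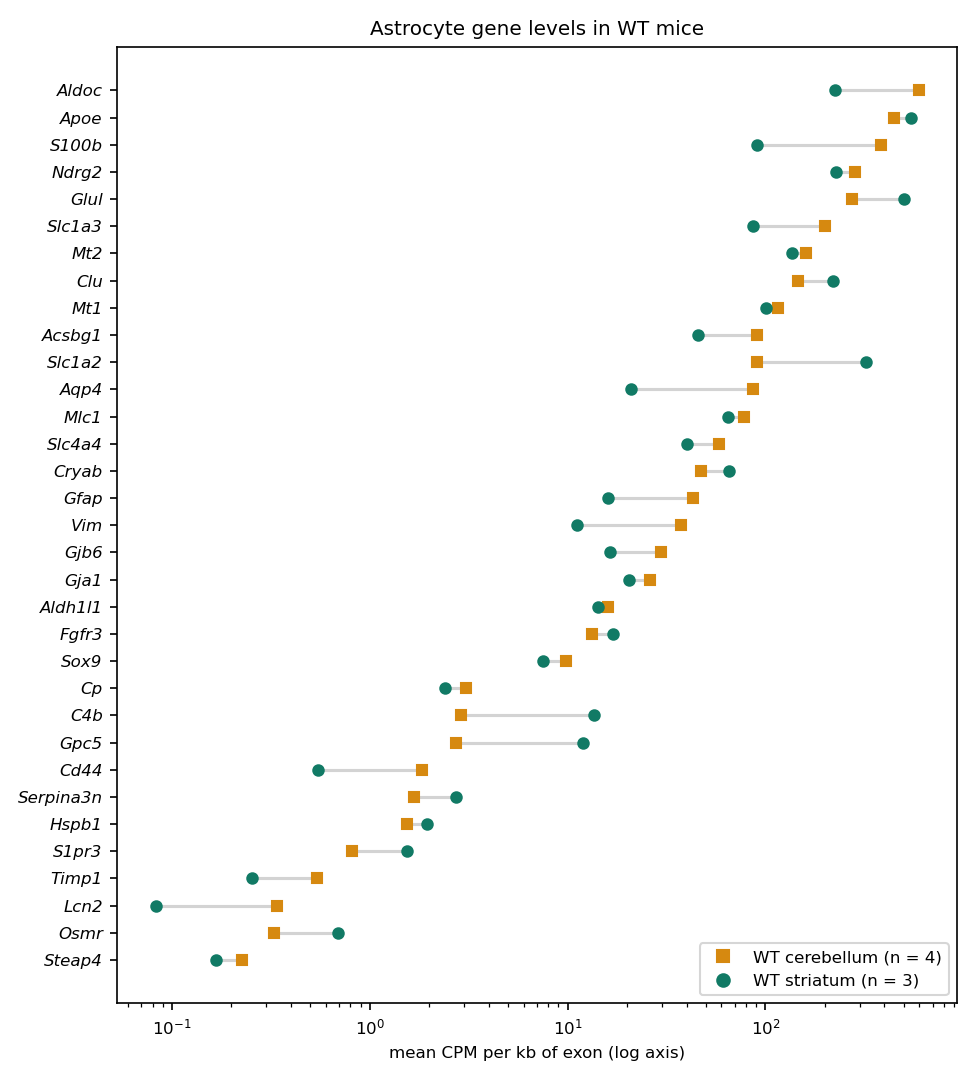
Mean level of each of the 33 genes in WT cerebellum (orange squares, n = 4) and WT striatum (green circles, n = 3), in CPM per kilobase of exon on a log axis, in the order of the WT cerebellar level. CPM were scaled over all 14 libraries together. Squares far right of their circles mark genes such as S100b and Aqp4, and squares far left of them mark C4b, Gpc5 and Slc1a2.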

How the data were processed

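RNA of microdissected striatum and cerebellum was sequenced in 14 libraries. The authors deposited raw read counts per gene, 1 table per library, with 23337 gene symbols in each. Build mm10 and the tools HTSeq 0.6.1p1, STAR, DESeq2 and cutadapt 1.13 are named, per the submitters' processing notes, with no order or role; the sources used here do not give the annotation or the strand setting. Replicate counts differed by more than sampling noise in every pair (chi-square per degree of freedom at least 5.93).

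CPM were computed from the deposited counts with TMM-scaled library sizes. Genes kept by filterByExpr (minimum count 10, total 15) were fitted with edgeR 4.0.16 (R 4.3.3), robust quasi-likelihood, within each tissue, within WT libraries between regions, and over all 14 libraries for the interaction. P-values were adjusted by Benjamini-Hochberg over all genes tested. SE is the absolute fold change on the log2 scale over the square root of F. Trio means used log2 CPM with a prior count of 2. The striatum had fewer libraries per group than the cerebellum (3 against 4) and lower depth, so its fold changes are less precise.

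The members and every list were chosen with earlier results of these data known. All 33 members are reported, with values per library for the 6 genes of the contrast and for called members, and up to 4 called genes of each further list; Serpina3n, C4a and values of other single genes were added beside them. Alternatives were DESeq2 size factors, no filter, a mean of 1 CPM, DESeq2 1.42.0, limma-voom 3.58.1 with quality weights, an adjusted p of 0.1, a replicate block, a sex score, removal of each library's length trend, all libraries in 1 model, and leaving out each library. The models were tested on simulated data with 200 changed genes. The striatal model called 0% of the 1.25-fold, 34.8% of the 1.5-fold and 74.2% of the 2-fold changes, and 6.49% of its calls were false. The cerebellar model called 56.1%, 68.7% and 89.4% of them, and 4.05% of its calls were false. The simulated means had no length trend such as that of striatal WT replicate 1. Coordinates and exon lengths are from GENCODE vM21 on GRCm38; 89.8% of symbols matched by current name, 8.23% by a synonym and 1.99% not at all. Promoters are from RefSeq on GRCm38.p6.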

Additional observations from a re-analysis of the deposited data

Results flagged for a closer look

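The genotype effect on Cryab differed between the tissues, by 0.61 on the log2 scale (edgeR adjusted p = 0.0376). In 4 of 68 groups of 4 cerebellar libraries, 1 library lay far from the others by Dixon's test, which chance alone gives in about 1 in 20 groups. Fgfr3, the receptor for fibroblast growth factors, had 101.3 CPM in 1 cKO cerebellum and 91.84 to 93.04 CPM in the others. S1pr3 had 3.145 CPM in 1 WT cerebellum and 3.897 to 4.049 CPM in the others. Ndrg2, a cytoplasmic protein rich in astrocytes, had 1180 CPM in 1 WT cerebellum and 919.5 to 956.5 CPM in the others. Cryab had 70.13 CPM in 1 WT cerebellum and 74.18 to 74.33 CPM in the others.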

How the results depend on the processing

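Of 825 comparisons of 46 results with an alternative, 729 were counted as unchanged. For the 40 results of single genes this meant the same direction and the same side of the threshold. For counts of called members it meant within a factor of 1.5. For trio differences it meant the same direction, within the pooled SD of the groups. In the striatum 1 member was called; 2 were called with no low-count filter, with limma-voom and with the length trend removed, 3 at an adjusted p of 0.1, 4 with DESeq2 and 4 with all 14 libraries in 1 model. With 1 library left out, 0 to 2 were called, 2 without WT replicate 1 (Aqp4 and Cryab) and 0 without any of the others. In the cerebellum 8 were called, 1 with all libraries in 1 model and 6 to 10 with 1 library left out. For the interaction 1 was called, 2 with DESeq2 (Cryab and Acsbg1) and 0 to 1 with 1 library left out. Between the WT regions 24 were called, and 23 to 26 with 1 library left out. The trio difference was −0.044 in striatum and −0.10 in cerebellum when the median of the 3 genes replaced the mean. The median takes the gene of middle level in each library, which was not the same gene in all libraries, so these values compare different genes. With 1 library left out striatum gave 0.19 to 0.49 and cerebellum 0.44 to 0.59.

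Some uncalled fold changes near 0 turned sign. In the striatum S100b was −0.065 with limma-voom and −0.13 with the length trend removed, and Cp 0.17 and 0.060. With 1 library left out, the striatal values ran from −0.050 to 0.14 for S100b, −0.16 to 0.18 for Cp and −0.063 to 0.19 for C4b. The interaction of Gja1 was −0.033 with the length trend removed and ran from −0.047 to 0.11 with 1 library left out, and that of Aqp4 from −0.12 to 0.056. The cause was not tested.

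The labels do not say whether replicate numbers pair the libraries, and correlations between libraries did not settle it. By Xist and Y-linked counts, same-numbered libraries of a tissue were also of the same sex. Pairing and sex could thus not be fully told apart. The correlation of deviations between same-numbered libraries was 0.1329, 0.0896 and 0.0574 in striatum, where each cKO library correlated best with its own number, and 0.3399, 0.1628, 0.0569 and 0.2046 in cerebellum, where not all did. With the replicate number as a block, 0 members were called in striatum (Cryab adjusted p = 0.156), 8 in cerebellum, 0 for the interaction (Cryab 0.121) and 24 between the WT regions.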
